A study of Mus musculus and Acomys cahirinus with 16 samples.

Results

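The difference between mouse and spiny mouse in the skin response to DMBA/TPA was measured gene by gene. For each gene it is the log2 fold change (treated over untreated) in spiny mouse minus that in mouse, so a positive value means a larger rise or a smaller fall in spiny mouse. Genes were members when their symbol, with case ignored, occurred once in the mouse count table (56980 genes) and once in the spiny mouse count table (19818 genes), and lay outside the keratin and keratin-associated protein (Krtap) families. Of 18110 shared symbols 18013 lay outside these families, and 13567 of them passed the filter on low counts in both species. A shared symbol stands for the same gene name in 2 annotations, and orthology was not checked further. The 16 samples were 4 untreated and 4 DMBA/TPA-treated skin samples of the laboratory mouse (Mus musculus) and 4 and 4 of the spiny mouse Acomys cahirinus. DMBA is a carcinogen and TPA a phorbol ester, and the title of the series concerns resistance of spiny mice to squamous tumours after this treatment. Strain, sex, age, doses, times of treatment, and whether a treated sample held a tumour are not given in the sources used here, and nothing says whether replicates came from separate animals, so p-values measure only the spread between these samples.

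In the skin model with these agents, DMBA mutates keratinocytes and repeated TPA then drives their outgrowth. TPA activates protein kinase C, and through it mitogen-activated protein kinases and the AP-1 transcription factors, and treated epidermis becomes thicker, divides faster and attracts leukocytes. Skin also holds hair follicles that cycle between growth (anagen) and rest, pigment cells, fat and a sheet of muscle, so a bulk sample mixes the responses of all of them.

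Library totals ran from 19608787 to 30561256 counts, and 3 counts, taken as the limit of detection for counting error only, correspond to 0.0982 to 0.153 CPM (counts scaled to a common library size). Levels are TMM-scaled CPM within each species. They are not corrected for gene length, so changes, not levels, are compared across species and genes. Perp, a desmosome gene of keratinocytes, was present in every group and averaged 2061 CPM in untreated and 2770 CPM in treated mouse skin, and 1999 and 2263 CPM in spiny mouse skin. Untreated mouse replicate 2 stood apart. Its summed level of growing hair follicle genes was 1315 CPM against 119.3 to 135.2 CPM in the other untreated mouse samples, and its summed muscle level was 79960 CPM against 30660 to 34300 CPM. Untreated spiny mouse samples divided as well. Their summed follicle level was 6399 and 5696 CPM in replicates 1 and 2, and 581.9 and 1564 CPM in replicates 3 and 4. Untreated mouse replicate 1 held more liver transcripts (Alb and Apob, 503.6 CPM summed) than the other untreated mouse samples (4.191 to 5.41 CPM). Alb and Apob are therefore not described further.

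Over all genes, the treatment changed a large share in each species, and the responses of many differed between the species. In mouse, 4395 of the 13567 genes were higher after treatment (32.4%) and 3625 lower (26.7%) at an edgeR adjusted p under 0.05, and in spiny mouse 3957 were higher (29.2%) and 3629 lower (26.7%). The species difference was called for 6213 genes (45.8%), positive for 2905 (21.4%) and negative for 3308 (24.4%). With the keratin families included it was called for 46.1% of 13656. The positive share of these calls was 46.76% with TMM factors, and it moved between 36.66% and 66.7% under the other scalings and filters, so the balance between the 2 directions depended on the scaling. Without untreated mouse replicate 2, 7641 genes were called. The median change over all genes was 0.06 in mouse and 0.0048 in spiny mouse, and the median difference was -0.03.

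Concordant genes, called in both species in the same direction, numbered 3769 (27.8%): 2063 higher (15.2%) and 1706 lower (12.6%). For 2453 of them no species difference was called, and for 1316 the sizes differed. Where both rose and the sizes differed, the mouse rise was the larger in 604 genes and the spiny mouse rise in 105. Where both fell, the mouse fall was the larger in 532 and the spiny mouse fall in 75. Genes called in mouse alone with a called difference numbered 2331 (17.2%), of which 1301 rose and 1030 fell. Genes called in spiny mouse alone with a called difference numbered 1285 (9.47%), 685 rising and 600 falling. Opposite genes, called in both species in opposite directions, numbered 1113 (8.20%): 479 rose in spiny mouse and fell in mouse (3.53%), and 634 did the reverse. A further 2226 genes were called in 1 species without a called difference, or oppositely in both without one, and 2843 were called in neither.

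The genes of the concordant and opposite classes with values below were taken where the treated and untreated samples did not overlap in both species, and those of the one-species classes where they did not overlap in the called species. Without overlap were 57.1% of all genes in mouse and 51.9% in spiny mouse.

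**Figure D1:**
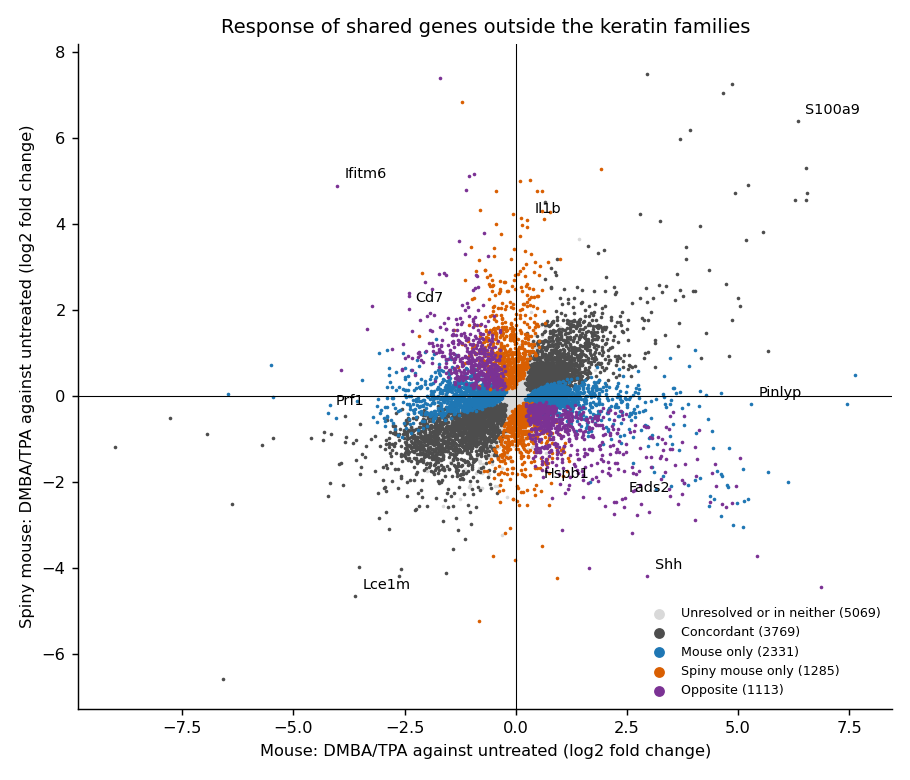
Each point is 1 of the 13567 genes, with the mouse log2 fold change (treated over untreated) on the x axis and the spiny mouse log2 fold change on the y axis, coloured by response class. The 3769 concordant genes lie in the lower left and upper right, the 1113 opposite genes in the other quadrants, and genes called in 1 species lie along the axes.

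The largest concordant rises included genes of stressed epidermis. S100a9 (chr3:90599939-90603028, GRCm39, as are all gene positions given), a subunit of the antimicrobial protein calprotectin, had 9.01, 1.44, 8.15 and 10.1 CPM in untreated mouse and 551, 594, 811 and 376 CPM in treated mouse. Spiny mouse had 9.66, 3.81, 9.697 and 7.36 CPM untreated and 618, 703, 647 and 629 CPM treated. All treated samples were above all untreated ones in both species, with replicate 2 the lowest of the untreated mouse samples. The log2 fold change was 6.34 (SE 0.60) in mouse and 6.41 (SE 0.30) in spiny mouse, and the difference was 0.07 (95% interval -1.16 to 1.29, edgeR adjusted p = 0.937).

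Klk6 and Klk13, kallikrein proteases of the epidermis, rose as well. Klk6 went from 34.3 ± 21.5 to 1047 ± 98.03 CPM (SD, n = 4) in mouse and from 63.98 ± 14.1 to 1691 ± 336 CPM in spiny mouse. For Klk13 the mouse rise (6.54) was larger than the spiny mouse rise (4.72), with a difference of -1.82 (edgeR adjusted p = 0.00244). Cdhr1, a cadherin-related protein best known from photoreceptors, went the other way: 0.487, 0.218, 0.402 and 0.5 CPM became 13.01, 10.01, 10.2 and 8.01 CPM in mouse, and 1.802, 0.753, 3.47 and 1.97 CPM became 311, 273, 272 and 227 CPM in spiny mouse. Its groups did not overlap in either species, and the rise was larger in spiny mouse by 2.40 (edgeR adjusted p = 0.00165). Sprr2e, a small proline-rich cornified envelope protein, had 0.568, 0, 0.219 and 1.77 CPM in untreated mouse, where replicate 2 held no count. Its changes were 6.52 in mouse, or 7.73 without untreated replicate 4, and 4.56 in spiny mouse. Sprr2e, Lce1m, H2-M5 and the kallikreins belong to clusters of closely related genes, so reads that fit several copies make their counts uncertain.

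The concordant falls included barrier genes. Flg2, a filaggrin-like protein of the cornified layer, had 1920, 1465, 2103 and 3050 CPM in untreated mouse and 374, 284, 190.5 and 280.4 CPM in treated mouse. In spiny mouse it had 1893, 832, 1842 and 1624 CPM untreated and 229.9, 306, 221 and 199.7 CPM treated. Every treated sample was below every untreated one, and the log2 falls were 2.92 and 2.69, with a difference of 0.22 (95% interval -0.60 to 1.04). Lce1m, a late cornified envelope protein, fell by 3.62 in mouse and by 4.64 in spiny mouse. H2-M5, a non-classical histocompatibility gene, fell by 3.08 and by 2.83. A larger fall in spiny mouse was called for the semaphorin Sema3d (-1.44, edgeR adjusted p = 0.00286). For the mucin-like Fcgbp the difference of -1.54 lay near the threshold (edgeR adjusted p = 0.0488). That call was lost without mouse untreated replicate 1 or 3, mouse treated replicate 1 or 4, spiny mouse untreated replicate 2 or 3, or spiny mouse treated replicate 1 or 2 (adjusted p up to 0.13).

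Proliferation genes rose in both species. All 27 tested genes of the cell cycle list were called higher in mouse and all 27 in spiny mouse, and 25 of them had no called species difference. The median log2 fold change was 1.45 in mouse and 1.51 in spiny mouse. Mki67, a marker of cycling cells, went from 94, 156, 89.3 and 113 CPM to 307, 269.9, 272 and 231 CPM in mouse and from 102, 81, 79.9 and 77.3 CPM to 336, 236, 256 and 236 CPM in spiny mouse. No treated sample overlapped an untreated one, and the difference of 0.39 had a 95% interval of -0.12 to 0.90. The exceptions were Ccnb1, the mitotic cyclin (0.44, edgeR adjusted p = 0.0422), and Cenpa, the centromeric histone (0.71, edgeR adjusted p = 0.00223), both larger in spiny mouse. The Ccnb1 call was lost without any 1 mouse library other than untreated replicate 2, without spiny mouse untreated replicate 1, 3 or 4, and without spiny mouse treated replicate 1 or 3. With upper-quartile factors 6 of the 27 had a larger rise in spiny mouse, and with library size alone 12, so the number of called differences depended on the scaling. A difference that was not called does not show equal rises.

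The 21 tested genes of keratinocyte activation divided. Of these, 15 rose in mouse (32.4% over all genes), and 17 rose and 2 fell in spiny mouse (29.2% and 26.7%). The medians of the list were 2.52 in mouse and 2.29 in spiny mouse. The difference was called positive for 3 (21.4% over all genes), or 5 without treated mouse replicate 4, and negative for 9 (24.4%). Its 4 ligands of the epidermal growth factor receptor divided too. Tgfa rose by 2.43 in mouse against 0.96 in spiny mouse (difference -1.47, edgeR adjusted p = 2.39e-05), and Areg by 2.52 against 1.30 (-1.22, edgeR adjusted p = 0.00798). The Hbegf difference was -0.78 (edgeR adjusted p = 0.0385), a call lost without mouse untreated replicate 1, mouse treated replicate 1 or 4, spiny mouse untreated replicate 1 or 2, or spiny mouse treated replicate 1, 2 or 3. Ereg had no called difference (0.07, edgeR adjusted p = 0.913). The gap junction gene Gjb6 rose by 3.90 in mouse, and its spiny mouse value was 0.70 (edgeR adjusted p = 0.139). Arg1 and Odc1, enzymes that make ornithine and polyamines, rose in mouse (2.01 and 0.75) and fell in spiny mouse (-2.56 and -0.54). Arg1 had 39.7, 18.8, 42.8 and 39.1 CPM in untreated and 130.1, 151, 149 and 136 CPM in treated mouse, and 118, 74.6, 124 and 99.1 CPM in untreated and 35.4, 15.3, 10.6 and 9.46 CPM in treated spiny mouse. The cytokines Il19 and Il24 rose in both species. No fold is given for them, since untreated mouse samples lay near or below 3 counts (highest 0.146 CPM for Il19 and 0.136 CPM for Il24).

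Among genes called in mouse alone, the largest rises included a lipid enzyme and signalling genes. Pla2g4d (chr2:120096076-120119678), an epidermal phospholipase A2, had 0.447, 0.0437, 0.1096 and 0.773 CPM in untreated and 5.298, 5.36, 7.303 and 5.67 CPM in treated mouse, and untreated replicates 2 and 3 lay below 3 counts. Spiny mouse had 17.4, 12.8, 21.9 and 21.6 CPM untreated and 11.8, 12.3, 17.4 and 21.5 CPM treated, and these groups overlapped. The mouse change was 4.12, the spiny mouse change -0.23 (95% interval -0.74 to 0.29), and the difference -4.36 (SE 0.53, edgeR adjusted p = 1.41e-05). The mouse change was 4.85 and the difference -5.08 without untreated mouse replicate 4. For Dusp2, a phosphatase that switches off mitogen-activated kinases, 3.09 ± 1.44 CPM became 37.5 ± 7.15 CPM in mouse (SD, n = 4), and spiny mouse had 9.796 ± 5.49 and 10.4 ± 5.24 CPM. Its difference was -3.52 (edgeR adjusted p = 0.000239).

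Pinlyp, an inhibitor-like protein of the Ly6 type, and Ephb1, an ephrin receptor, showed the same pattern, but untreated mouse replicate 2 was set apart in both. Pinlyp had 4.14, 23.6, 4.31 and 5 CPM in untreated and 299, 328, 377 and 442 CPM in treated mouse, and 75.2, 60.9, 27.8 and 29.3 and 34.9, 36.3, 59.9 and 39.05 CPM in spiny mouse. Its mouse change was 5.29 and the difference -5.47, or 6.43 and -6.61 without that library. The Ephb1 difference was -3.61, or -5.03 without it.

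The largest mouse-only falls included genes of cytotoxic cells and itch signalling. Prf1 (chr10:61133612-61140459), the pore-forming perforin of T and natural killer cells, had 6.58, 3.1, 5.99 and 7.001 CPM in untreated mouse and 0.367, 0.176, 0.291 and 0.371 CPM in treated mouse. In spiny mouse it had 5.68, 5.95, 8.404 and 8.59 CPM untreated and 2.96, 5.64, 8.85 and 4.38 CPM treated. Treated mouse samples were all below the untreated ones, the spiny mouse groups overlapped, and the difference was 3.83 (SE 0.51, edgeR adjusted p = 2.89e-05). The spiny mouse change of -0.38 had a 95% interval of -1.07 to 0.31. Fewer cells of a type and less RNA per cell cannot be told apart in bulk samples.

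Il31ra, a subunit of the receptor for the itch cytokine IL-31, had 22.1, 49.4, 25.99 and 36.8 CPM in untreated and 2.46, 1.62, 1.89 and 1.45 CPM in treated mouse. Spiny mouse samples had 19.5, 19.7, 19.7 and 19.97 CPM untreated and 12.96, 15.8, 17.4 and 22.2 CPM treated, which overlapped. The mouse fall was 4.18 and the difference 3.98 (edgeR adjusted p = 4.35e-07). Scd3, a stearoyl-CoA desaturase of the sebaceous gland with near-identical relatives, fell by 3.58 in mouse, and its spiny mouse value was -0.11 (95% interval -0.60 to 0.38). Kcnq5, a potassium channel, fell by 2.90 in mouse, and its spiny mouse value was 0.21 (95% interval -0.17 to 0.59).

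Of 24 tested cornified envelope genes 14 rose and 2 fell in mouse (32.4% and 26.7% over all genes). In spiny mouse 9 rose and 4 fell (29.2% and 26.7%). Of the 24, 13 had a called negative difference against 2 positive (24.4% and 21.4% over all genes). The spiny mouse falls were 2 without untreated replicate 1 or treated replicate 1 or 4. The medians were 1.28 and 0.11. Ivl (involucrin), an early envelope protein, averaged 36.8 ± 10.8 CPM (SD, n = 4) in untreated and 121 ± 10.2 CPM in treated mouse, and 79.02 ± 28.97 and 81.3 ± 21.2 CPM in spiny mouse. Its difference was -1.68 (edgeR adjusted p = 0.00113). Tgm3, a transglutaminase also made in the hair shaft, had the largest negative difference of the list, -5.80 (-6.56 without treated spiny mouse replicate 3), with a mouse rise of 3.79 and a spiny mouse value of -2.01 (edgeR adjusted p = 0.081). Flg, filaggrin, rose in both (2.80 and 2.29), and Tgm5 rose in spiny mouse (1.21) with a mouse value of -0.02.

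In the list of aryl hydrocarbon receptor and NRF2 target genes, 10 of 15 rose and 3 fell in mouse (32.4% and 26.7% over all genes). In spiny mouse 3 rose and 4 fell (29.2% and 26.7%). The count of spiny mouse rises was 5 without untreated spiny mouse replicate 1. The medians were 0.68 and -0.04, and the difference was negative for 7 (24.4% over all genes) and positive for 2 (21.4%). Slc7a11, the cystine transporter, rose in mouse by 4.02, and its spiny mouse value was 1.07 (edgeR adjusted p = 0.059). Gclc, which catalyses the first step of glutathione synthesis, averaged 34.03 ± 5.25 CPM (SD, n = 4) in untreated and 89.6 ± 6.26 CPM in treated mouse. It rose by 1.40 there, and it fell by 0.51 in spiny mouse, from 68.98 ± 12.6 to 48.6 ± 3.26 CPM (difference -1.90, edgeR adjusted p = 1.43e-06). Cyp1a1, the classical aryl hydrocarbon receptor target, was called in neither species (-0.58 and -0.34).

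Of 16 AP-1 and kinase feedback genes, 12 rose and 3 fell in mouse (32.4% and 26.7% over all genes). In spiny mouse 6 rose and 3 fell (29.2% and 26.7%). The difference was negative for 10 (24.4% over all genes) and positive for 1 (21.4%). Egr1, an immediate early transcription factor, rose by 1.55 in mouse, and its spiny mouse value was -0.10 (difference -1.65, edgeR adjusted p = 6.4e-05). Dusp6, a feedback phosphatase of the ERK kinases, rose by 1.995 in mouse and 0.61 in spiny mouse. Jund rose in mouse (0.56) and fell in spiny mouse (-0.71). The AP-1 subunits Fosl1 and Junb rose in both without a called difference (-0.43 and -0.31). Fosb ran the other way: it fell by 1.54 in mouse, and its spiny mouse value was 0.18.

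Genes that rose in spiny mouse alone were led by inflammatory mediators. Il1b (chr2:129206490-129213059), the cytokine interleukin 1 beta, had 5.93, 1.48, 7.09 and 10 CPM in untreated and 7.76, 5.45, 5.704 and 10.5 CPM in treated mouse, and these groups overlapped. In spiny mouse it had 4.999, 3.13, 7.83 and 5.25 CPM untreated and 94.01, 98.7, 106 and 63.4 CPM treated. Every treated spiny mouse sample was far above the untreated ones. The spiny mouse change was 4.09 (SE 0.28), the mouse change 0.26 (95% interval -0.78 to 1.30), and the difference 3.83 (edgeR adjusted p = 6.65e-05).

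Ptgs2 (chr1:149975782-149983978), the inducible cyclooxygenase that makes prostaglandins, had 7.31, 2.62, 7.35 and 8.55 CPM in untreated and 7.13, 7.596, 6.43 and 11.6 CPM in treated mouse. Spiny mouse had 9.52, 9.198, 13.3 and 11.2 CPM untreated and 104, 117, 87.9 and 122 CPM treated. The groups overlapped in mouse and not in spiny mouse, and the difference was 2.97 (edgeR adjusted p = 2.1e-05). The matrix protease Mmp3 rose by 3.93 in spiny mouse, with treated samples at 26.6, 21.8, 14.01 and 79.8 CPM, and its mouse value was 0.26 (95% interval -0.59 to 1.12). Its difference was 3.67, and without treated spiny mouse replicate 4 the spiny mouse rise was 3.17 and the difference 2.91. Bst1, a surface enzyme of myeloid cells, rose by 3.44 in spiny mouse with a mouse value of -0.49. Without untreated mouse replicate 2, Bst1 was also called in mouse, as a fall.

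The spiny mouse-only falls were smaller. Calcb, a neuropeptide of the calcitonin gene family, had 18.6, 23.8, 27.1 and 30.8 CPM in untreated and 3.96, 9.54, 6.33 and 2.88 CPM in treated spiny mouse. Mouse had 5.52, 5.501, 6.32 and 7.18 CPM untreated and 5.67, 4.35, 6.21 and 9.09 CPM treated, with overlap, and the difference was -2.18 (edgeR adjusted p = 0.000672). Hspb1, a small heat shock protein of differentiating keratinocytes, fell by 2.07 in spiny mouse, and its mouse value was 0.46. Trim2, a ubiquitin ligase, fell by 1.95 in spiny mouse, and its mouse value was -0.32. Both were also called in mouse without untreated mouse replicate 2. Wnt10b, a ligand that acts in hair growth, fell by 1.92 in spiny mouse, with a mouse value of -0.12 (95% interval -0.50 to 0.26).

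**Figure D2:**
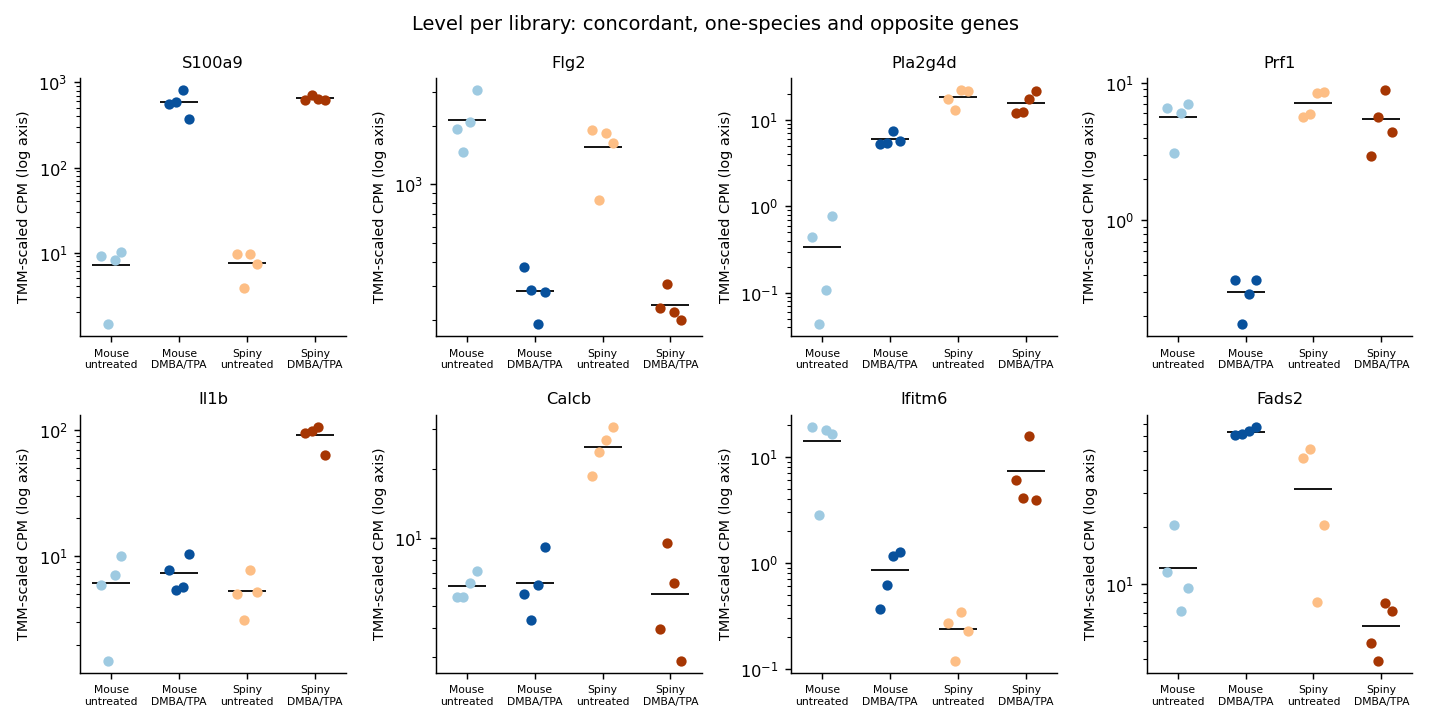
Level of 8 genes in each library, as TMM-scaled CPM on a log axis, with the mean of each group as a line. S100a9 and Flg2 moved alike in both species, Pla2g4d and Prf1 moved in mouse, Il1b and Calcb in spiny mouse, and Ifitm6 and Fads2 moved in opposite directions.

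Cytokines and chemokines showed the same weighting as Il1b. Of 22 tested genes 8 rose and 1 fell in mouse (32.4% and 26.7% over all genes), or 4 fell without untreated replicate 2. In spiny mouse 16 rose and 2 fell (29.2% and 26.7%). The difference was positive for 13 (21.4% over all genes) and negative for 3 (24.4%). The negative count was 5 without untreated mouse replicate 2 or 3 or treated mouse replicate 2. In spiny mouse alone 12 genes were called (9.47% over all genes). The medians were 0.19 and 1.20, and the mouse median was -0.02 when libraries were scaled by their size alone. Cxcl2, a chemokine for neutrophils, had 2.11, 1.59, 4.18 and 1.37 CPM in untreated and 48.2, 55.3, 89.2 and 64.9 CPM in treated spiny mouse, against 2.88, 0.917, 3.54 and 4.96 CPM and 2.15, 1.05, 0.581 and 5.23 CPM in mouse. Its difference was 5.21 (SE 0.78, edgeR adjusted p = 8.19e-05), the largest of the list, or 6.096 without treated mouse replicate 4. Osm, oncostatin M of the interleukin 6 family, rose by 5.03 in spiny mouse with a mouse value of 0.32.

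The leukocyte chemokines Ccl3, Ccl4, Ccl5 and Ccl7 rose by 4.14, 3.78, 2.29 and 2.60 in spiny mouse, and none was called in mouse. Tnf rose by 1.19 in spiny mouse and had a mouse value of -0.33. Other members ran the other way. Cxcl14, a chemokine of resting epithelium, was opposite (2.06 in mouse, -1.52 in spiny mouse), and Il1a and Tslp rose in mouse alone (1.10 and 1.24). The Il1a call was lost without treated mouse replicate 1, and the Tslp call without untreated mouse replicate 4 or treated mouse replicate 3. Only 4 of the 10 listed neutrophil markers were tested. Of these, 3 were called higher in mouse (32.4% over all genes) and 3 in spiny mouse (29.2%). Their difference was positive for 3 (21.4% over all genes) and negative for 1 (24.4%). The positive count was 2 at its lowest with 1 library left out. The neutrophil markers summed to 6.374 to 11.95 CPM in untreated and 20.72 to 32.19 CPM in treated mouse, and to 25.57 to 41.58 and 79.82 to 108.7 CPM in spiny mouse. Their part in the cytokine values was not tested.

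Opposite genes that rose in spiny mouse included leukocyte genes. Ifitm6 (chr7:140595612-140597837), an interferon-induced membrane protein of myeloid cells with close relatives, had 19.2, 2.84, 18.1 and 16.6 CPM in untreated and 0.367, 0.615, 1.16 and 1.26 CPM in treated mouse. Spiny mouse had 0.272, 0.119, 0.3403 and 0.229 CPM untreated and 6.09, 4.07, 15.6 and 3.88 CPM treated. The order of the groups was reversed with no overlap in either species, although untreated mouse replicate 2 was far below the other 3. The changes were -4.01 and 4.90, and the difference 8.90 (SE 0.93, edgeR adjusted p = 3.56e-06). Untreated spiny mouse samples lay near 3 counts (0.118 CPM in replicate 2), so the sizes of the spiny mouse change and the difference are uncertain. Without treated spiny mouse replicate 3 the difference was 8.24.

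Cd7 (chr11:120927573-120930244), a surface protein of T and natural killer cells, had 6.41, 2.97, 5.3 and 7.001 CPM in untreated and 1.36, 0.659, 1.199 and 0.853 CPM in treated mouse. In spiny mouse it had 4.32, 6.34, 5.89 and 5.99 CPM untreated and 15.8, 16.8, 38.8 and 20.7 CPM treated. Treated samples were all below the untreated ones in mouse and all above them in spiny mouse, and the difference was 4.45 (edgeR adjusted p = 3.31e-06). Cd209e, a lectin of the DC-SIGN family with near-identical copies in mouse, fell by 1.996 in mouse and rose by 1.86 in spiny mouse.

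Clca2 (chr3:144776024-144805204), an epithelial regulator of chloride conductance, had the smallest standard error of these 5 (0.26). It had 126, 88.3, 108.1 and 130.4 CPM in untreated and 42.9, 32.8, 24.9 and 22.8 CPM in treated mouse, and 13.1, 10.4, 13.4 and 11.9 CPM in untreated and 81.9, 72.8, 60.7 and 60.8 CPM in treated spiny mouse. The difference was 4.38 (95% interval 3.81 to 4.94, edgeR adjusted p = 2.74e-08). Neurl3, a ubiquitin ligase, went from 18.6 ± 5.96 to 6.08 ± 1.19 CPM in mouse and from 6.72 ± 1.51 to 21.96 ± 2.83 CPM in spiny mouse (SD, n = 4).

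Interferon-induced genes, which encode antiviral effectors, the immunoproteasome and their own regulators, moved in opposite directions. Of 22 tested genes 17 fell and none rose in mouse (26.7% and 32.4% over all genes). In spiny mouse 18 rose and none fell (29.2% and 26.7%). All 22 had a called positive difference, against 21.4% of all genes. The medians were -1.22 in mouse and 1.02 in spiny mouse, and 13 genes were opposite by the calls in both species. The count of positive differences was 20 without treated mouse replicate 2, its lowest with 1 library left out. Without untreated mouse replicate 2, 22 fell in mouse and 22 had a positive difference. Their summed level ran from 314 CPM (untreated replicate 2) to 635 CPM in untreated and from 246.5 to 363.8 CPM in treated mouse, and from 553.5 to 701 CPM in untreated and from 820.4 to 1597 CPM in treated spiny mouse. Thus the mouse sums overlapped only through untreated replicate 2, and the spiny mouse sums did not overlap.

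Oas3, of the family of sensors of double-stranded RNA, had the largest difference of the list. It had 13.3, 3.36, 11.2 and 9.37 CPM in untreated and 2.36, 1.93, 2.91 and 4.93 CPM in treated mouse, and 0.612, 0.634, 0.851 and 0.183 CPM in untreated and 1.59, 5.001, 7.35 and 2.92 CPM in treated spiny mouse (difference 4.46, SE 0.72, edgeR adjusted p = 0.000161). The mouse groups overlapped through untreated replicate 2, and the spiny mouse groups did not. Irf9, a subunit of the factor that carries the interferon signal, had the smallest, 1.03. The immunoproteasome subunits Psmb8 and Psmb9 fell in mouse (-0.97 and -1.28) and rose in spiny mouse (1.61 and 1.29). Isg15 rose in spiny mouse (1.11), and its mouse value was -0.99 (edgeR adjusted p = 0.159). The call of its difference was lost without mouse untreated replicate 1, mouse treated replicate 1 or 2, spiny mouse untreated replicate 4 or spiny mouse treated replicate 3.

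**Figure D3:**
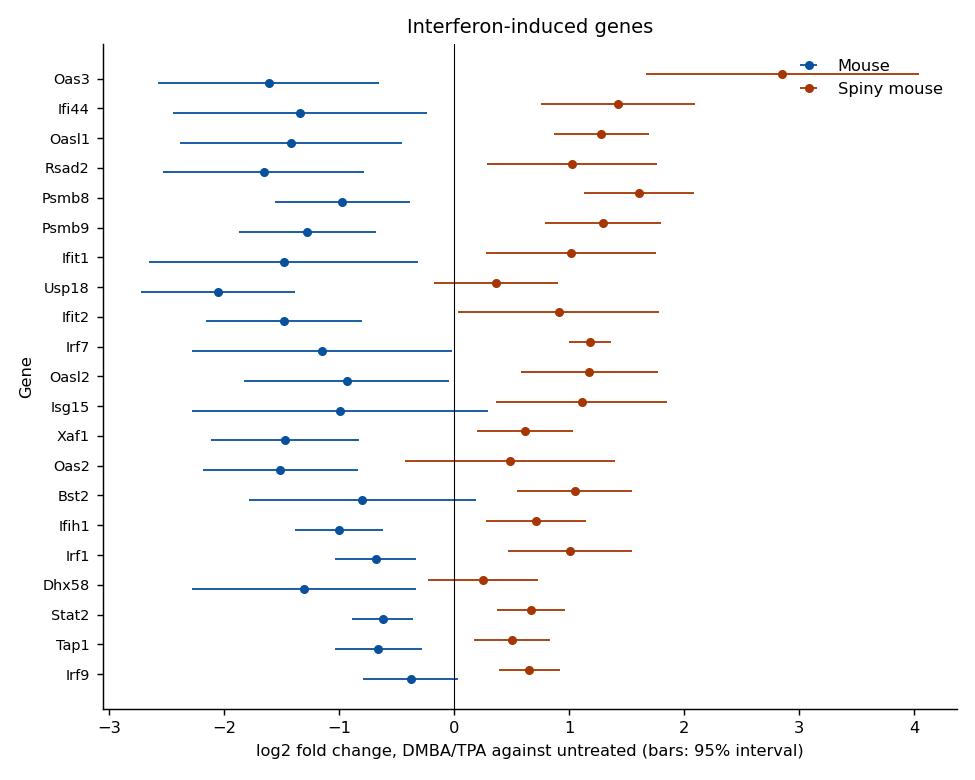
Log2 fold change (x axis, treated over untreated) of 21 of the 22 tested interferon-induced genes (y axis, ordered by the species difference), with 95% intervals as bars. All mouse points shown lie below 0 and all spiny mouse points shown above it.

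To show the letters behind these lists, mouse promoters were taken from RefSeq (build GRCm38.p6, 250 bases before to 50 after a start). They were searched on both strands for GAAA, any 2 bases and GAAA again, the core of the interferon-stimulated response element, and for TGANTCA, the TPA response element bound by AP-1, and the motifs can overlap each other. The first was found in 3.44% of all 32851 promoters, in 2.86% of the 13785 promoters of genes tested, in 6.2% of 484 promoters of opposite genes higher in spiny mouse and in 2.19% of 640 of those higher in mouse. Of the 21 promoters matched to 18 genes of the interferon list, 7 held it (33.3%). The AP-1 letters were in 7.81% of all promoters and 5.64% of those of genes tested. They were in 5.3% of promoters of genes higher in both species, 5.03% of those higher and 7.94% of those lower in mouse alone, 7.38% of those higher and 4.78% of those lower in spiny mouse alone, and 9.5% and 6.72% of those of opposite genes higher and lower in spiny mouse. These shares are descriptions of letters in mouse windows and show no binding. The 150 bases before the start are printed for 3 interferon-induced genes and for 2 genes with AP-1 letters, 5′ to 3′ on the strand of the gene. Capitals mark the interferon motif in the first 3 and the AP-1 motif in the others. Ifit1 (chr19:34640739-34640888, plus strand) and Rsad2 (chr12:26456453-26456602, minus strand) were opposite, and Isg15 (chr4:156200819-156200968, minus strand) was called in spiny mouse alone. The Ifit1 call in mouse was lost without untreated replicate 1 or 3 or treated replicate 1, 2 or 3, and that in spiny mouse without untreated replicate 1, 2 or 4 or treated replicate 2 or 3. The Rsad2 call in spiny mouse was lost without untreated replicate 1 or 2.
Ifit1: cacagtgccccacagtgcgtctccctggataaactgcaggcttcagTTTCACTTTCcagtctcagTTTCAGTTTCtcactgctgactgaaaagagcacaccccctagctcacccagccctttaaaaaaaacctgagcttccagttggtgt
Rsad2: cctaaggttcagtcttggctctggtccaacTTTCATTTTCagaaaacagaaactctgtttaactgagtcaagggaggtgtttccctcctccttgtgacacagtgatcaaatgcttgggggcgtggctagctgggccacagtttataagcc
Isg15: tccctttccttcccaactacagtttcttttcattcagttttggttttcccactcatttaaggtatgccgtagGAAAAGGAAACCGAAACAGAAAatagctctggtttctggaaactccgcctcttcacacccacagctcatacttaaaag
Of the AP-1 pair, the cornified envelope gene Sprr1a (chr3:92485882-92486031, minus strand) rose in both species, more in mouse (2.97 against 1.03), and Mmp3 (chr9:7445672-7445821, plus strand) rose in spiny mouse alone.
Sprr1a: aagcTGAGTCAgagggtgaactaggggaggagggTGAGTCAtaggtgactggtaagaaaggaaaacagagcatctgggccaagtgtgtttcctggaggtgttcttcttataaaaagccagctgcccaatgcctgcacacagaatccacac
Mmp3: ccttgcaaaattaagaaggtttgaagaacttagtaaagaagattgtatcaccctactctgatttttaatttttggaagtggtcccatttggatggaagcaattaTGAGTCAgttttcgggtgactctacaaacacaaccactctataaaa

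Markers of T and natural killer cells moved like the interferon list. Of 26 tested genes 16 fell and 3 rose in mouse, 19 rose and none fell in spiny mouse, and 22 had a called positive difference. Over all genes 26.7% fell and 32.4% rose in mouse, 29.2% rose and 26.7% fell in spiny mouse, and 21.4% had a positive difference. The list summed to 65.13 to 91.52 CPM in untreated and 38.38 to 43.2 CPM in treated mouse, and to 102.8 to 153 CPM in untreated and 192.7 to 335.8 CPM in treated spiny mouse, with no overlap in either species. Their part in the interferon and cytokine values was not tested. Cd28, a costimulatory receptor of T cells, had 3.73, 3.88, 5.85 and 2.32 CPM in untreated and 1.36, 1.27, 1.24 and 0.927 CPM in treated mouse. Spiny mouse had 1.97, 1.31, 2.25 and 2.33 CPM untreated and 11.5, 16.1, 13.1 and 16.1 CPM treated, and the difference was 4.58 (SE 0.36, edgeR adjusted p = 2.45e-07). Cd3e, part of the T cell receptor complex, fell by 1.72 in mouse, and its spiny mouse value was 0.54 (edgeR adjusted p = 0.0743). Cd8a and Cd4 rose in spiny mouse (1.73 and 1.61) and were called in neither direction in mouse. Pdcd1 and Icos, induced on activated T cells, rose in both species.

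Macrophage markers followed in part: 8 of 12 rose in spiny mouse (29.2% over all genes) and 2 fell in mouse (26.7%). The mouse count was 7 without untreated mouse replicate 2 and 0 or 1 without any other mouse library. Cd163, a scavenger receptor, had 32.4, 35.5, 40.5 and 39.6 CPM in untreated and 264, 178, 192 and 415 CPM in treated spiny mouse, and 40.4, 33.5, 48.9 and 58.2 CPM and 35.6, 40.8, 55.01 and 46.2 CPM in mouse, where the groups overlapped. Its difference was 2.85 (edgeR adjusted p = 1.03e-05). Clec7a, the receptor for fungal glucans, had the largest difference of the list (4.003), while Itgam, shared by myeloid cells, was called in neither species (0.24 and 0.11). Of 12 dendritic cell genes 9 fell in mouse (26.7% over all genes), and 4 rose (29.2%) and 2 fell (26.7%) in spiny mouse. Cd207 (langerin), the marker of Langerhans cells, fell by 1.95 in mouse. Its spiny mouse value of -0.58 was no longer called without untreated replicate 1 or 3 or without any 1 treated replicate. Of 6 B cell markers only Jchain passed the count filter in both species.

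**Figure D4:**
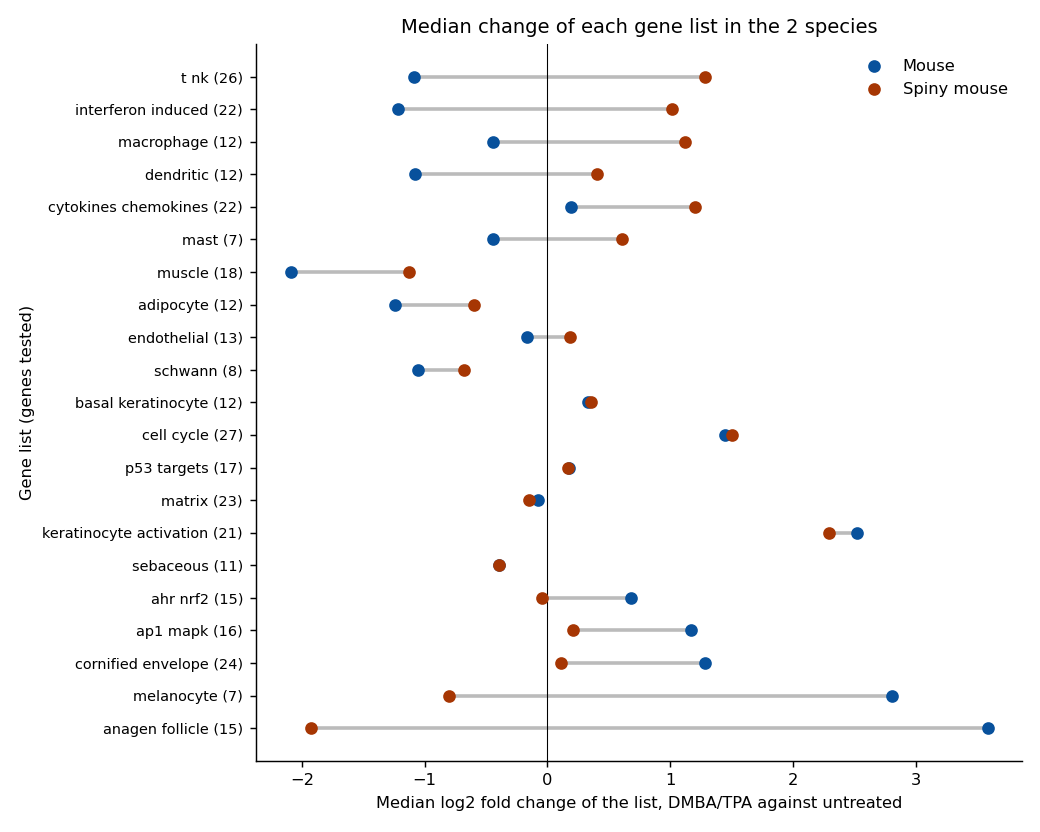
Median log2 fold change (x axis) of each gene list with at least 7 tested genes (y axis, number tested in brackets), for mouse and spiny mouse. Cell cycle genes sit at 1.45 and 1.51, interferon-induced genes at -1.22 and 1.02, and growing follicle genes at 3.59 and -1.92.

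Opposite genes that rose in mouse and fell in spiny mouse included a regulator of the growing hair follicle. Shh (chr5:28661813-28672254), the sonic hedgehog ligand of the hair matrix, had 0.0406, 3.19, 0.292 and 0.227 CPM in untreated and 7.55, 8.12, 6.54 and 6.67 CPM in treated mouse. In spiny mouse it had 7.52, 14.6, 1.599 and 6.397 CPM untreated and 0.318, 0.179, 0.585 and 0.548 CPM treated. Untreated samples varied widely in both species, while treated samples were closer together and did not overlap them. The changes were 2.96 and -4.20, and the difference -7.16 (SE 1.15, edgeR adjusted p = 0.000152). Untreated mouse replicate 1 lay below 3 counts (0.128 CPM), and treated spiny mouse replicate 2 lay near them (0.105 CPM). The sizes of these changes are therefore uncertain. Without untreated mouse replicate 2 the mouse change was 5.31 and the difference -9.51.

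Msi1, an RNA-binding protein of progenitor cells, and Col11a1, a fibrillar collagen, had the same shape. Their differences were -5.70 (edgeR adjusted p = 0.000256) and -4.72 (edgeR adjusted p = 0.000227), and without untreated mouse replicate 2 their mouse changes moved from 2.999 to 4.93 and from 2.26 to 3.48, and their differences were -7.63 and -5.93. Fads2 (chr19:10040129-10079110), a fatty acid desaturase, had 11.5, 20.6, 7.2 and 9.501 CPM in untreated and 60.9, 62.04, 63.7 and 67.3 CPM in treated mouse, and 45.9, 51.4, 7.996 and 20.6 CPM in untreated and 4.87, 3.93, 7.902 and 7.17 CPM in treated spiny mouse. Its groups did not overlap, narrowly so in spiny mouse, and the difference was -4.78 (SE 0.64, edgeR adjusted p = 3.31e-05). Igfl3, of the insulin growth factor-like family, did not rest on a varying untreated group: 0.974, 0.568, 1.35 and 0.636 CPM became 4.56, 5.71, 7.303 and 4.34 CPM in mouse, and 29.1, 23.4, 36.4 and 31.1 CPM became 1.73, 4.71, 5.08 and 1.42 CPM in spiny mouse (difference -5.80, edgeR adjusted p = 9.72e-07).

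All 15 tested genes of the growing follicle list had a called negative difference, against 24.4% of all genes. Of these 13 rose in mouse (32.4% over all genes) and 10 fell in spiny mouse (26.7%), and 8 were opposite by both calls. Without untreated mouse replicate 2, 14 rose in mouse and 15 had a negative difference. The medians were 3.59 and -1.92. The list summed to 119.3 to 1315 CPM in untreated and 6152 to 7319 CPM in treated mouse, and to 581.9 to 6399 CPM in untreated and 142.6 to 1645 CPM in treated spiny mouse, where the groups overlapped. Hoxc13, a homeobox regulator of hair keratins, rose by 3.78 in mouse, or 4.76 without untreated mouse replicate 2. Its spiny mouse value of -2.01 was no longer called without untreated replicate 1 or 2 or treated replicate 1 or 2. Lef1, the transcription factor of Wnt signalling, had a mouse value of 2.22, which was 4.42 without untreated replicate 2 and was not called without any 1 other mouse library. It fell by 2.73 in spiny mouse, or by 3.44 without treated replicate 3. The count of mouse rises was 6 by the DESeq2 test and 8 without untreated mouse replicate 3, and that of spiny mouse falls was 6 without untreated replicate 2 or without treated replicate 1. Hair cycle stage of each sample is not given, and its part in these values was not tested.

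Pigment cell genes rose in mouse, like those of the follicle. Of 7 tested melanocyte genes 6 rose in mouse (32.4% over all genes). In spiny mouse only 1 fell (26.7% over all genes), or 4 without untreated spiny mouse replicate 3. A negative difference was called for 6 (24.4% over all genes). Pmel, a melanosome protein, had 4.55, 25.4, 4.97 and 2.86 CPM in untreated and 76.7, 89.4, 78.6 and 57.8 CPM in treated mouse, with untreated replicate 2 the highest of the untreated. Spiny mouse had 5.88, 17.6, 3.06 and 11.2 CPM untreated and 5.68, 4.75, 3.73 and 5.07 CPM treated, and the difference was -3.97 (edgeR adjusted p = 0.00117), or -5.24 without untreated mouse replicate 2. Mitf, the master regulator of the lineage, was opposite (0.49 and -0.65), but was not called in mouse with libraries scaled by size alone.

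Muscle transcripts fell in both species and more in mouse. Of 18 tested genes 18 fell in mouse and 17 in spiny mouse (26.7% over all genes in each species). A positive difference was called for 13 (21.4% over all genes). That count was 6 without treated replicate 2 of either species, 7 without untreated spiny mouse replicate 3 and 8 without treated mouse replicate 1. Ttn, the giant sarcomere protein, fell by 3.81 in mouse and 0.94 in spiny mouse, the largest difference of the list (2.86). The Ttn fall in mouse was by 2.99 and the difference 2.04 without untreated mouse replicate 2. Muscle summed to 30660 to 79960 CPM in untreated and 5499 to 7552 CPM in treated mouse, and to 28540 to 37160 and 10350 to 20590 CPM in spiny mouse. How much muscle each sample held is not given, and its part in the other values was not tested. Of 12 tested adipocyte genes 8 fell in mouse and 7 in spiny mouse (26.7% over all genes in each species). The mouse falls depended on the test and on single libraries. The mouse count was 5 by limma-voom, 5 without untreated replicate 3, 4 without untreated replicate 4 or treated replicate 1 or 3, and 3 without treated replicate 4.

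**Figure D5:**
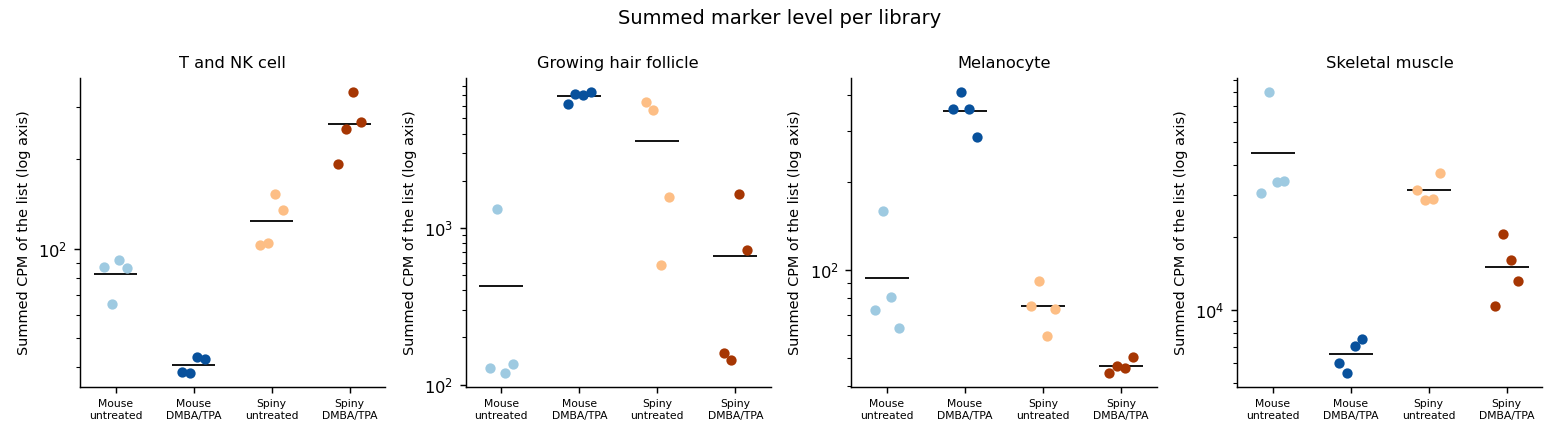
Summed CPM of 4 marker lists in each library on a log axis, with the group mean as a line. T and natural killer markers moved apart between the species, follicle and melanocyte markers were higher in treated than in untreated mouse, and muscle markers were lower in treated samples of both species.

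Targets of p53, the DNA damage response factor, showed little common movement. Of 17 tested genes 6 rose and 5 fell in mouse (32.4% and 26.7% over all genes), and 5 rose and 5 fell in spiny mouse (29.2% and 26.7%). Cdkn1a, the p21 cell cycle inhibitor, had 188 ± 56.8 CPM (SD, n = 4) in untreated and 382 ± 22.3 CPM in treated mouse, against 143 ± 26.6 and 133 ± 7.59 CPM in spiny mouse. Its difference was -1.13 (edgeR adjusted p = 0.00294). Mdm2, which degrades p53, had values of 0.01 in mouse and 0.22 in spiny mouse.

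Of 23 tested matrix genes of fibroblasts 9 fell and 5 rose in spiny mouse (26.7% and 29.2% over all genes). In mouse 2 fell and 3 rose (26.7% and 32.4%). The difference was negative for 6 and positive for 4, near the shares over all genes (24.4% and 21.4%). The medians were -0.07 in mouse and -0.15 in spiny mouse. Col3a1, a major collagen of dermis, averaged 3200 ± 1154 CPM (SD, n = 4) in untreated and 2997 ± 643 CPM in treated mouse, and 2200 ± 609.7 and 778 ± 99.3 CPM in spiny mouse (difference -1.41, edgeR adjusted p = 0.00377). Postn, a matricellular protein, was opposite (0.72 and -0.69). The protease inhibitor Timp1 rose in spiny mouse by 3.49. Its mouse value of 1.63 was no longer called without untreated replicate 4 or treated replicate 4. Of 12 tested basal keratinocyte genes 5 rose and 3 fell in mouse (32.4% and 26.7% over all genes). In spiny mouse 7 rose and 1 fell (29.2% and 26.7%). The rises in spiny mouse numbered 4 without untreated replicate 4 or treated replicate 1. The difference was positive for 5 (21.4% over all genes), or 3 without treated mouse replicate 2, and negative for 3 (24.4%). The hemidesmosome genes Itgb4 and Col17a1 had positive differences (0.97 and 1.28), and the desmosome gene Dsp and the 14-3-3 gene Sfn negative ones (-0.77 and -1.46).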

How the data were processed

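The authors deposited raw fragment counts per gene, 1 table per species. Per the file headers, read pairs were counted with featureCounts 2.0.3 without a strand option, on GRCm39 with Ensembl 108 for mouse and on AcoCah2 for spiny mouse, so reads of antisense or overlapping genes cannot be told apart. Per the submitters' processing notes, Trim Galore and HISAT2 were also used, in versions not given in the sources used here. Mouse identifiers were named from GENCODE M39, which left 744 of 56980 without a symbol. The series' design text speaks of fibroblasts after irradiation, the sample labels of skin, and the labels were followed.

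Each species was filtered with filterByExpr, scaled by TMM and tested as treated over untreated with the quasi-likelihood test of edgeR 4.0.16 (R 4.3.3). The species difference is the species by treatment interaction over all 13656 tested shared symbols, keratins included. P-values were adjusted by Benjamini-Hochberg over all genes of each fit and called under 0.05. Standard errors are the log2 fold change over the square root of F. Code was tested on simulated data.

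Named genes lie outside the keratin families, with a mean of at least 5 CPM in 1 group of each species. They were the 5 concordant and 5 opposite genes each way with the largest smaller change and no overlap of groups in both species, and the 4 largest one-species genes each way with a change under 0.5 in the other species and no overlap in the called one. Members of 24 gene lists could be named as examples of their list. Members and lists were chosen with earlier results of these data known. The alternatives were DESeq2 1.42.0, limma-voom (limma 3.58.1), other scalings and filters, a replicate block and leaving out each library. The values of 1 gene of the interferon list are not reported here.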

Additional observations from a re-analysis of the deposited data

Results flagged for a closer look

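The response differed between the species, by the test of the difference itself, for 6213 of the 13567 genes and for 30 named genes. Among concordant genes the difference in log2 fold change (spiny mouse minus mouse) was -1.82 for Klk13, 2.40 for Cdhr1, -1.54 for Fcgbp and -1.44 for Sema3d. Among opposite genes it was 8.90 for Ifitm6, 4.45 for Cd7, 4.38 for Clca2, 3.86 for Cd209e and 3.32 for Neurl3. It was -7.16 for Shh, -5.70 for Msi1, -5.80 for Igfl3, -4.78 for Fads2 and -4.72 for Col11a1. For genes called in mouse alone it was -5.47 for Pinlyp, -4.36 for Pla2g4d, -3.61 for Ephb1 and -3.52 for Dusp2, and 3.83 for Prf1, 3.98 for Il31ra, 3.47 for Scd3 and 3.11 for Kcnq5. For genes called in spiny mouse alone it was 3.83 for Il1b, 3.67 for Mmp3, 3.93 for Bst1 and 2.97 for Ptgs2, and -2.18 for Calcb, -2.53 for Hspb1, -1.62 for Trim2 and -1.80 for Wnt10b.

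Among 144 groups of 4 samples of the named genes, 10 held a sample far from the other 3, where chance marks about 1 group in 20. In 7 of the 10 it was untreated mouse replicate 2, with 96.8 CPM of Sema3d and 2.84 CPM of Ifitm6 (both below the rest), and 3.19 CPM of Shh, 7.47 CPM of Msi1, 11.3 CPM of Col11a1, 23.6 CPM of Pinlyp and 7.38 CPM of Ephb1 (all above the rest). The others were Neurl3 at 7.86 CPM in treated mouse replicate 4, Pinlyp at 59.9 CPM in treated spiny mouse replicate 3 and Kcnq5 at 2.02 CPM in treated mouse replicate 2.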

How the results depend on the processing

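Of the called values of the named genes recomputed under the alternatives, 2134 kept their direction and side of the threshold and 13, all of them the Fcgbp difference, kept the direction but lost the call, leaving out those whose adjusted p DESeq2 left undefined (Shh, Col11a1 and Ephb1 among them). Beyond single libraries, the Fcgbp call was lost with upper-quartile factors, library size alone, joint factors, limma-voom and the replicate block (-1.42, adjusted p 0.103). These 2 counts do not cover genes given only as list members, some of which lost calls as stated beside their values. A change newly called in the other species altered the class of Bst1, Hspb1 and Trim2 without untreated mouse replicate 2, of Trim2 with upper-quartile factors or library size alone, of Hspb1 by DESeq2, and of Prf1 and Il31ra without treated spiny mouse replicate 3 and 4. The DESeq2 test kept the class of 32 of the 36 named genes, and not that of Shh, Col11a1, Ephb1 or Hspb1. Counts moved with stricter calls. At an adjusted p under 0.01 there were 2323 concordant and 475 opposite genes. With an absolute log2 of at least 1 in every call there were 2852 species differences, 759 concordant, 1345 mouse-only, 560 spiny mouse-only and 217 opposite genes. Leaving out 1 library at a time gave 5667 to 7641 species differences, 3347 to 4214 concordant, 2058 to 3000 mouse-only, 1100 to 1405 spiny mouse-only and 930 to 1486 opposite genes. Without untreated mouse replicate 2, 96.32% of the opposite genes and 62.02% of the spiny mouse-only genes kept their class. Scaling by library size alone shifted the median difference by 0.22, upper-quartile factors by 0.16, DESeq2 size factors by -0.10 and no low-count filter by -0.13, with positive shares of 66.7%, 61.69%, 37.33% and 36.66%. Deviations of same-numbered untreated and treated samples had a mean correlation of -0.00022 in mouse and -0.37 in spiny mouse. With 4 samples per group this cannot tell whether same-numbered samples came from the same animal, and the main fits used no pairing. With the replicate number as a block 5659 differences were called, 5536 of them shared, and 2 of 12 adipocyte genes fell in mouse and 4 of 15 follicle genes in spiny mouse. Species, genome annotation and counting table cannot be told apart. Low-count genes, such as Il6, were not tested.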

Other observations

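Some gene families outside the fixed lists, grouped by symbol after their values were seen and given no test as families, leaned one way. Over all genes, 32.4% rose and 26.7% fell in mouse, and 29.2% rose and 26.7% fell in spiny mouse. The difference was positive for 21.4% and negative for 24.4% of all genes. Phosphodiesterases, which break down cyclic nucleotides, fell mostly in mouse: 17 of 22 tested fell there and 2 rose, against 8 and 3 in spiny mouse, and 12 had a positive species difference. Pde2a fell by 2.55 in mouse, or by 3.33 without treated mouse replicate 2, and Pde7a rose in spiny mouse (1.69) with a mouse value of -0.11. Of 35 tested genes whose symbols name interleukin receptors or their partners, 17 rose and 7 fell in spiny mouse. In mouse 3 rose and 12 fell, and 21 had a positive difference. Il20ra, a subunit of the receptor for interleukins 19, 20 and 24, fell by 4.61 in mouse and 0.96 in spiny mouse.

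Of 17 tested members of the TNF receptor superfamily 13 rose and 4 fell in spiny mouse, and 4 rose and 6 fell in mouse. Tnfrsf9, a costimulatory receptor of activated T cells, rose by 4.30 in spiny mouse with a mouse value of 0.77, and Tnfrsf11a, the receptor RANK, was opposite (-1.39 and 0.79). Of 5 distal-less homeobox genes 5 rose in mouse and 4 fell in spiny mouse, and Dlx1, Dlx3 and Dlx4 were opposite. The Dlx2 fall in spiny mouse was lost without untreated replicate 1 or 2 or treated replicate 1, 2 or 4, and the Dlx5 rise in mouse without untreated replicate 1 or 3 or treated replicate 1, 2 or 3. With all libraries the mouse rise of Dlx1 was 2.83 and the mouse median of the 5 genes 3.35. Without untreated mouse replicate 2 the rises were 4.12 for Dlx1, 4.466 for Dlx3 and 5.01 for Dlx4, and the median was 4.466. Dlx3 was also in the follicle list. Of 50 tested genes whose symbols begin with Eif (initiation factors, their kinases and their binding proteins) 33 rose in mouse and 20 in spiny mouse (or 10 to 13 without untreated replicate 3 or 4 or treated replicate 1, 2 or 3), with medians of 0.65 and 0.15. Falls numbered 4 in mouse and 3 in spiny mouse. The species difference of these 50 genes was negative for 28 and positive for 4, and their mouse median was 0.41 with libraries scaled by size alone.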
